A study of Mus musculus with 8 samples.

Results

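The genes described here encode 10 integrin subunits, 7 alpha chains (Itga2b, Itga4, Itga5, Itga6, Itgal, Itgam and Itgav) and 3 beta chains (Itgb1, Itgb2 and Itgb3), in long-term haematopoietic stem cells (LT-HSC) of mouse bone marrow. They were taken from a fixed list of symbols, and all 10 were found, each with 1 probe set, among the 29915 genes that the array names. RNA was measured on 8 Affymetrix arrays, 2 for each of 4 groups, from cells that were sorted as positive for cKit, Sca and CD150 and negative for lineage markers, CD48 and Flk2. The groups were CD169-DTR mice (CD169DTR/+ in the labels) given 2 Gy of total body irradiation, CD169-DTR mice left non-irradiated, wild-type (WT) mice given 2 Gy and WT mice left non-irradiated. Every mouse, WT included, received diphtheria toxin 72 hours before irradiation or sham irradiation. In CD169-DTR mice, 1 allele places the toxin receptor under the control of the CD169 gene, so the toxin depletes CD169+ macrophages. In the sorted cells the CD169 gene, Siglec1, lay between 3.86 and 4.12 log2 on all arrays, below the array medians. The cells were taken on day 5 after irradiation, and the sources used here give no age or sex of the mice and do not say whether animals were pooled. The design text says that the 2 replicates of a group came from distinct experiments.

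Integrins are cell surface receptors made of 1 alpha and 1 beta chain, and a chain reaches the surface only with a partner. On haematopoietic stem cells, the beta 1 chain pairs with alpha 4 (VLA-4, the receptor of Vcam1 and fibronectin), with alpha 5 (VLA-5, a receptor of fibronectin) and with alpha 6 (VLA-6, a receptor of laminins), and these receptors hold the cells in the marrow and act in homing. The beta 2 chain is the chain of leukocyte integrins, LFA-1 with alpha L, which binds Icam1 and Icam2, and Mac-1 with alpha M, the CD11b antigen of granulocytes and macrophages. The beta 3 chain pairs with alpha IIb in the fibrinogen receptor of platelets and megakaryocytes (CD41 and CD61) and with alpha V in a receptor of vitronectin and osteopontin.

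Promoters of 6 of the 10 genes (Itga2b, Itga4, Itga5, Itgam, Itgav and Itgb1) were matched in the RefSeq table of mouse build GRCm38.p6. The windows of Itga5, Itgam and Itga2b are shown because Itga5 separated the genotypes, Itgam had opposite orders with 2 Gy in the genotypes, and Itga2b stands for the megakaryocyte side of the family. Each run is the 250 bases before the gene start, 5′ to 3′ on the gene's strand. Capitals mark the core letters GAGGAA, bound by the myeloid factor PU.1, and the GC box GGGCGG, each searched on both strands. The windows are chr15:103366792-103367041 on the minus strand for Itga5, chr7:128062390-128062639 on the plus strand for Itgam and chr11:102469884-102470133 on the minus strand for Itga2b.
Itga5: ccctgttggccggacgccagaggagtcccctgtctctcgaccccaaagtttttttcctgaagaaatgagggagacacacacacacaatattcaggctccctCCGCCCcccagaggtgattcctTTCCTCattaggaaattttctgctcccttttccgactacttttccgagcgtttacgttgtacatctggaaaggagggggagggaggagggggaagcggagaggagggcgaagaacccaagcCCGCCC
Itgam: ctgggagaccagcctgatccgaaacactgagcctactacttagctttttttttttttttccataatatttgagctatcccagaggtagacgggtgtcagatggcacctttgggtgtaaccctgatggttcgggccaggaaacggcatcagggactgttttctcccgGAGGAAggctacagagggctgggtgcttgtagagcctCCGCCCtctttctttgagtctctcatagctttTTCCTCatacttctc
Itga2b: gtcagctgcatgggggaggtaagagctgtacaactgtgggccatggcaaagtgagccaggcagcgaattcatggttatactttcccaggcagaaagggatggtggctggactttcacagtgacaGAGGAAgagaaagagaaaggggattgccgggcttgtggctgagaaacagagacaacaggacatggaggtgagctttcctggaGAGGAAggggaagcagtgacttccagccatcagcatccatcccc
GAGGAA occurred 2 times in the Itgam window, at 84 to 79 and, on the opposite strand, 15 to 10 bases before the start. It occurred 2 times in the Itga2b window, at 126 to 121 and 44 to 39 bases before the start, and 1 time in that of Itga5. At least 1 copy was present in 23.3% of all 32851 windows of this length. GGGCGG occurred 2 times in the Itga5 window, 1 time in that of Itgam, and was not among the letters of the Itga2b window, and 32.7% of all windows hold it. The letters AGATAA of GATA factors and TGACTCA of AP-1 were searched too and were in none of the 6 windows, where 9.99% and 4.46% of all windows hold them. These are matches of letters in a short window and show no binding.

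The values are log2 values of the authors, and values are compared only within a gene, since probe sets differ in brightness. In RNA of whole sorted samples, fewer cells of a type and less RNA per cell cannot be told apart. Array medians lay between 4.76 and 4.93 log2, and replicates correlated with a Pearson r of 0.990 to 0.994 across probe sets. Arrays of different groups correlated with r of 0.986 to 0.993, so replicates were little more alike than arrays of different groups. The arrays with the greatest mean distance from the other arrays were CD169-DTR 2 Gy replicate 2 (0.467 log2) and WT 2 Gy replicate 1 (0.462), against 0.400 to 0.440 for the other 6. The sorted phenotype was met in part by the transcripts. Kit, the receptor of stem cell factor, lay between 14.25 and 14.93 and Slamf1 (CD150) between 10.66 and 12.38 on the 8 arrays. Flt3 (Flk2) lay between 5.85 and 8.22, while Cd48, whose protein the gate excludes, had values of 10.98 to 13.47. All 10 integrin genes had a mean above 4.92, the median of the means of the 30294 tested probe sets, at the 58.1 (Itgam) to 91.1 (Itgb1) percentile, which places a probe set's brightness and is no measure of abundance. The range over the 8 arrays was 0.36 log2 for Itgb1, the least variable member, and 2.43 log2 for Itgb2, the most variable. The median range of the 10 was 0.86 log2 and that of all tested probe sets 0.59 log2.

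**Figure D1:**
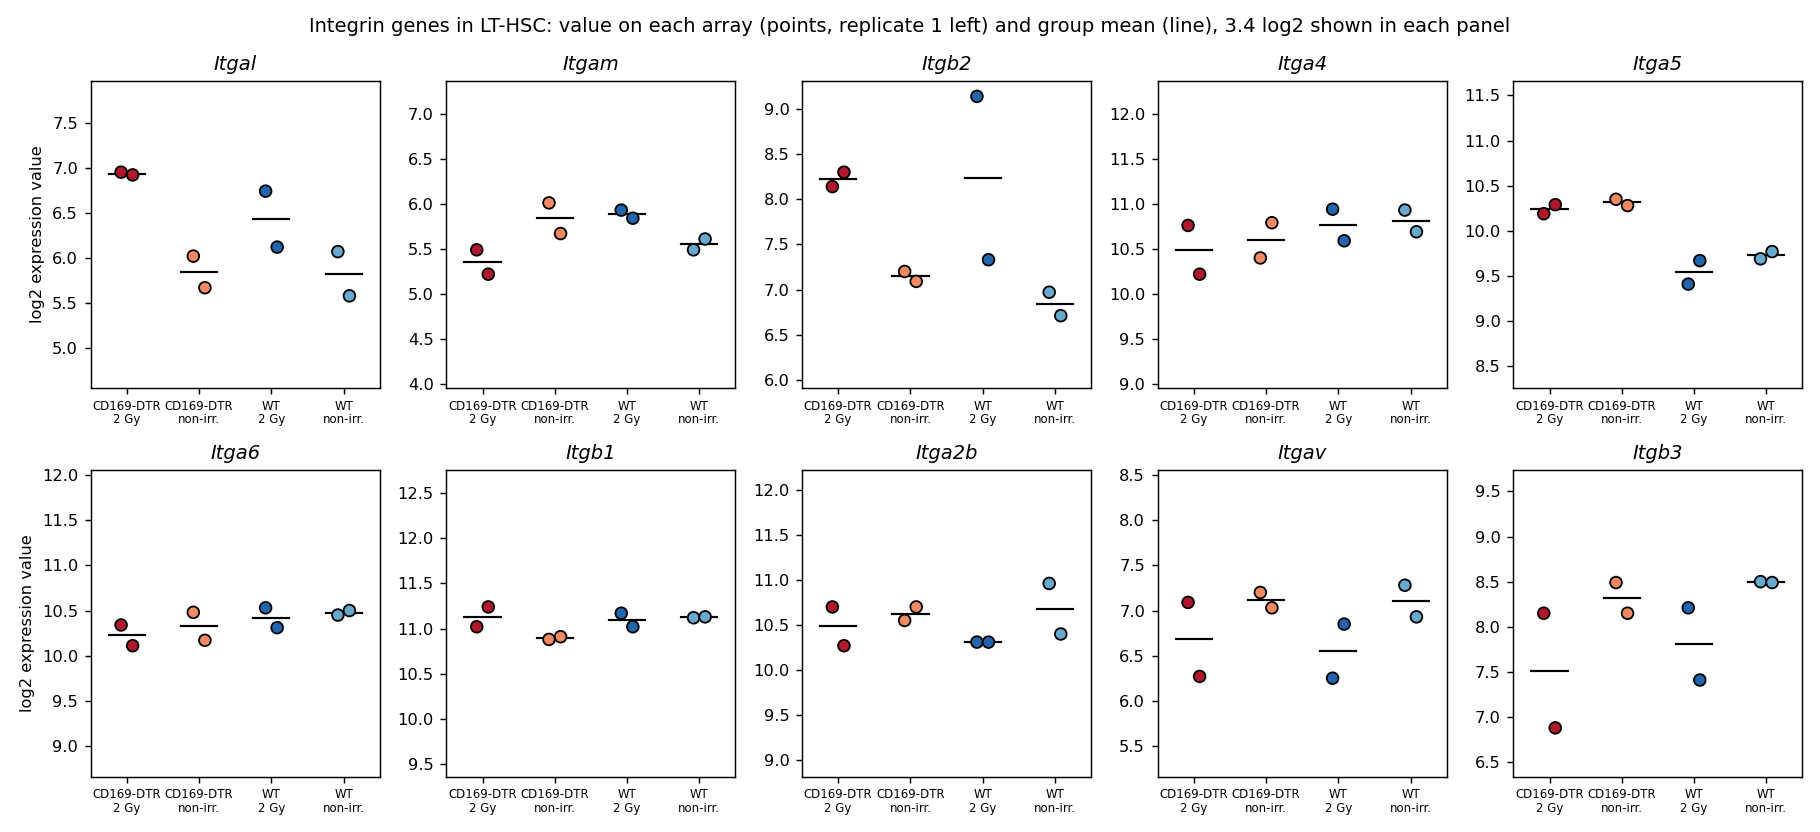
Value of each of the 10 integrin genes on each of the 8 arrays (vertical axis, log2 expression value, the same span in every panel) in the 4 groups (horizontal axis), with points for arrays and a line for the group mean. Itgb2 and Itgal stood higher in both 2 Gy groups than in their non-irradiated groups, Itga5 stood higher in both CD169-DTR groups than in both WT groups, and Itga4, Itga6 and Itgb1 varied by 0.36 to 0.72 log2 in all.

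Across the 7 comparisons fitted, none of the 10 genes passed an adjusted p of 0.05 in limma over all 30294 probe sets. The test itself called few genes, with 3 probe sets (0.0099%) for 2 Gy in WT, 3 (0.0099%) for 2 Gy averaged over the genotypes and 0 (0%) in each of the other 5. The number of integrin genes with an unadjusted p under 0.05 was 1 for 2 Gy in WT, 2 for 2 Gy in CD169-DTR, 1 for CD169-DTR against WT without irradiation and 2 after 2 Gy. The share of all probe sets with such a p was 7.81%, 6.77%, 4.38% and 7.57% in these 4 comparisons. The number of integrin genes with such a p was 1 for the difference between the genotypes in the change after 2 Gy (5.17% of all probe sets), 3 for 2 Gy averaged over the genotypes (9.23%) and 1 for CD169-DTR averaged over the treatments (6.33%). For 2 Gy, 3 integrin genes had a difference above 0 and 7 below it in each genotype, where 64.2% of all probe sets lay above 0 in WT and 56.6% in CD169-DTR. Their median difference was -0.10 log2 in CD169-DTR and -0.05 in WT, beside 0.03 and 0.08 over all probe sets. The differences described for single genes are therefore measured sizes with their errors, and none is a call.

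Among the leukocyte integrin chains, beta 2 and alpha L stood higher with 2 Gy in both genotypes, and alpha M did not. Itgb2, the common beta 2 chain, stood at 8.14 and 8.30 log2 in CD169-DTR 2 Gy LT-HSC, against 7.20 and 7.09 in CD169-DTR non-irradiated LT-HSC. In WT it stood at 9.14 and 7.33 in 2 Gy LT-HSC, against 6.97 and 6.71 in non-irradiated LT-HSC. All 4 irradiated arrays thus lay above all 4 non-irradiated ones, and the 2 WT 2 Gy arrays were far apart. The log2 difference after 2 Gy was 1.40 ± 0.52 (SE) in WT, a 2.63-fold higher level with a 95% interval of 1.11 to 6.2 (unadjusted p = 0.0326, adjusted p = 0.598 in limma). In CD169-DTR it was 1.08 ± 0.52 (adjusted p = 0.796), and averaged over the genotypes 1.24 ± 0.37 (adjusted p = 0.443). The difference between the genotypes in the change after 2 Gy was -0.32 log2 with a 95% interval of -2.07 to 1.43, which is wide beside the change itself. WT 2 Gy replicate 1, with the highest Itgb2 value of all arrays, set much of the WT value. Without it the WT difference was 0.49 log2 (adjusted p = 0.795) and the average 0.78 log2, and without WT 2 Gy replicate 2 it was 2.30 log2 and passed (adjusted p = 0.0447). Without replicate 2 the average over the genotypes was 1.69 log2 and passed too (adjusted p = 0.0462). Over all the alternatives the adjusted p of Itgb2 ranged from 0.0447 to 0.947 in WT and from 0.0462 to 0.73 for the average. The pass rests on 1 irradiated WT array, whose spread is assumed to equal that of the other groups.

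Itgal, the alpha L chain of LFA-1, had the same order of treatments. Its values were 6.95 and 6.92 log2 in CD169-DTR 2 Gy LT-HSC, against 6.02 and 5.67 in CD169-DTR non-irradiated LT-HSC. In WT they were 6.74 and 6.12 in 2 Gy LT-HSC, against 6.07 and 5.58 in non-irradiated LT-HSC. Irradiated and non-irradiated arrays did not overlap within either genotype, and the WT gap between the nearest arrays was small. The log2 difference after 2 Gy was 1.09 ± 0.26 (SE) in CD169-DTR, or 2.13-fold with a 95% interval of 1.38 to 3.28 (unadjusted p = 0.00463, adjusted p = 0.544 in limma). In WT it was 0.61 ± 0.26 (adjusted p = 0.642), and averaged over the genotypes 0.85 ± 0.18, or 1.8-fold (adjusted p = 0.331). The difference between CD169-DTR and WT in this change was 0.48 ± 0.37 log2 (adjusted p = 0.96). Over all the alternatives run, the CD169-DTR difference lay between 0.91 and 1.26 log2. Leaving out replicate 1 of WT 2 Gy gave a WT difference of 0.30 log2, and leaving out replicate 2 gave 0.92. It was 0.36 log2 when replicate 2 of WT non-irradiated was left out. In 3 of the 4 groups the replicate with more Itgal also had more Itgb2, the exception being CD169-DTR 2 Gy, whose replicates had nearly equal Itgal values.

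Itgam, the alpha M chain of Mac-1, did not share this order although it uses the same beta chain. It stood at 5.49 and 5.22 log2 in CD169-DTR 2 Gy LT-HSC, against 6.01 and 5.67 in CD169-DTR non-irradiated LT-HSC. In WT it stood at 5.93 and 5.84 in 2 Gy LT-HSC, against 5.49 and 5.61 in non-irradiated LT-HSC. Irradiated arrays lay below the controls in CD169-DTR and above them in WT. The log2 difference was -0.49 ± 0.16 (SE) in CD169-DTR (unadjusted p = 0.0223, adjusted p = 0.635 in limma) and 0.33 ± 0.16 in WT (unadjusted p = 0.0817, adjusted p = 0.659). The difference between the genotypes was -0.82 ± 0.23 log2, with a 95% interval of -1.37 to -0.27 (unadjusted p = 0.0103, adjusted p = 0.875). After 2 Gy, CD169-DTR lay -0.53 ± 0.16 log2 from WT (adjusted p = 0.636), and without irradiation 0.29 ± 0.16 (adjusted p = 0.999). Without CD169-DTR non-irradiated replicate 1, the difference after 2 Gy in CD169-DTR was -0.32 log2, and without both 2 Gy arrays that stood far from the rest, CD169-DTR lay -0.35 log2 from WT after 2 Gy.

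Groups that did not overlap were common among all genes, so they mark no member by themselves. For 2 Gy in WT, 3 integrin genes lay wholly higher and 4 wholly lower than the controls, where 31.4% and 13.2% of all probe sets did. For 2 Gy in CD169-DTR, 3 lay wholly higher and 1 wholly lower, where 17.8% and 13.4% of all probe sets did. For CD169-DTR against WT, 3 lay wholly higher and 1 wholly lower without irradiation (19.1% and 11.9% of all probe sets), and 2 and 1 after 2 Gy (16% and 18.9%). The genes that lay wholly higher after 2 Gy were Itgal, Itgam and Itgb2 in WT and Itgal, Itgb1 and Itgb2 in CD169-DTR. Those that lay wholly lower were Itga2b, Itga5, Itgav and Itgb3 in WT and Itgam in CD169-DTR.

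**Figure D2:**
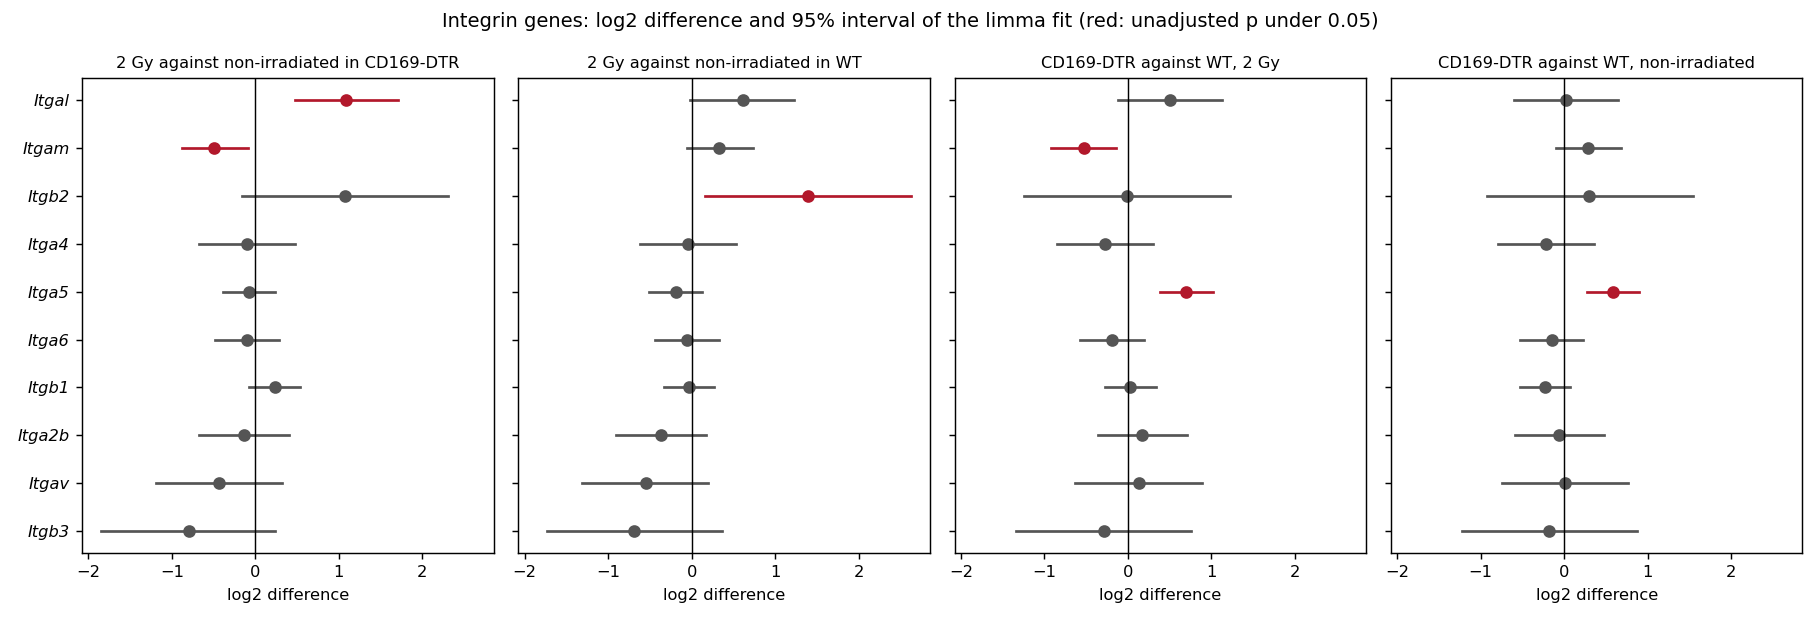
Log2 difference (horizontal axis) with its 95% interval in the limma fit for the 10 integrin genes (vertical axis) in 4 comparisons, red where the unadjusted p was under 0.05. Itgb2 stood at 1.40 for 2 Gy in WT and Itgal at 1.09 for 2 Gy in CD169-DTR, Itga5 was at 0.70 and 0.59 for CD169-DTR against WT with and without 2 Gy, and no gene passed the adjusted p.

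Markers of other cells are given here because alpha L, alpha M and beta 2 are carried by granulocytes, monocytes and lymphocytes. Of 16 neutrophil and granulocyte progenitor markers, 14 were higher in WT 2 Gy than in WT non-irradiated LT-HSC, with a median difference of 1.25 log2, and 6 of 16 in CD169-DTR, with a median of -0.12. Among all probe sets, 64.2% were above 0 in WT and 56.6% in CD169-DTR. An unadjusted p under 0.05 in limma was found for 8 of the 16 in WT, all higher, and for 0 in CD169-DTR. Among all probe sets, 7.81% in WT and 6.77% in CD169-DTR had such a p in either direction. The summed level of the list was 14.61 to 15.93 log2 in WT 2 Gy and 13.18 to 13.25 in WT non-irradiated LT-HSC. In CD169-DTR it was 14.14 to 14.22 with 2 Gy and 13.89 to 14.38 without. This list thus did not overlap between treatments in WT and overlapped in CD169-DTR. Elane, the neutrophil elastase, stood at 12.80 and 14.57 in WT 2 Gy against 11.76 and 11.59 in WT non-irradiated LT-HSC. Its highest array was WT 2 Gy replicate 2, and that of Itgb2 was WT 2 Gy replicate 1. The latter array also had the highest mean deviation of the monocyte and macrophage list (0.264 log2) and of the megakaryocyte list (1.004 log2). Lists of other integrin subunits (0.246) and of integrin ligands (0.256) were highest there too, and this array had the highest array median, 4.93 log2. The value of the monocyte and macrophage list is thus not particular to that list.

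Cd48 stood higher with 2 Gy in both genotypes, although CD169-DTR non-irradiated replicate 2 lay above WT 2 Gy replicate 2. It stood at 13.47 and 13.0 log2 in CD169-DTR 2 Gy against 11.05 and 12.54 in CD169-DTR non-irradiated LT-HSC, and at 12.95 and 12.14 in WT 2 Gy against 11.24 and 10.98 in WT non-irradiated LT-HSC. Its difference was 1.44 ± 0.50 (SE) log2 in CD169-DTR (adjusted p = 0.644 in limma) and 1.43 ± 0.50 in WT (adjusted p = 0.582). The list of 5 markers of cells outside the gate, to which Cd48 belongs, did not share this order in WT. There 2 were higher and 3 lower (median -0.18 log2), while in CD169-DTR 4 were higher and 1 lower (median 0.1). Of 13 mast cell, basophil and eosinophil markers, 10 were higher with 2 Gy in CD169-DTR (median 0.45 log2) and 6 in WT (median 0). An unadjusted p under 0.05 in limma was found for 5 of them in CD169-DTR, all higher, and for 0 in WT. Their mean deviation did not overlap between treatments in CD169-DTR (0.326 to 0.567 against -0.649 to -0.314). It overlapped in WT (-0.043 to 0.19 against -0.376 to 0.3). Of 12 T, NK and B cell markers, 8 were higher in each genotype, with medians of 0.09 in CD169-DTR and 0.07 in WT. Over all probe sets, 56.6% were above 0 in CD169-DTR and 64.2% in WT, with medians of 0.03 and 0.08. The summed T, NK and B cell list overlapped between treatments, at 14.51 to 15.07 against 14.76 to 15.45 log2 in CD169-DTR and 13.61 to 14.8 against 14.23 to 14.68 in WT. Of 11 LT-HSC markers, 7 were lower with 2 Gy in CD169-DTR and 6 in WT, 3 and 4 of them with an unadjusted p under 0.05. Such a p, in either direction, was found for 6.77% of all probe sets in CD169-DTR and 7.81% in WT. The summed LT-HSC list was 15.06 to 15.19 log2 in CD169-DTR 2 Gy against 15.47 to 15.65 in CD169-DTR non-irradiated LT-HSC, and 15.26 to 15.43 in WT 2 Gy against 15.73 to 15.78 in WT non-irradiated LT-HSC. Of 11 erythroid markers, 10 were lower with 2 Gy in CD169-DTR and 6 in WT. Their summed level was 13.67 to 14.2 in CD169-DTR 2 Gy against 14.31 to 16.44 in CD169-DTR non-irradiated LT-HSC, and 13.54 to 14.46 in WT 2 Gy against 15.21 to 15.63 in WT non-irradiated LT-HSC. Both summed levels, which the brightest genes weigh on most, were thus lower with 2 Gy, without overlap, in each genotype. The mean deviation over the genes of a list overlapped for LT-HSC markers in WT (-0.119 to 0.163 against 0.129 to 0.176) and in CD169-DTR (-0.243 to -0.08 against -0.091 to 0.066). For erythroid markers it overlapped in CD169-DTR (-0.864 to -0.204 against -0.346 to 1.124) and not in WT (-0.377 to 0.076 against 0.196 to 0.395). The part of cells with these markers in the integrin values was not tested. Cd3e, a chain of the T cell receptor complex, lay between 3.62 and 4.03 on all arrays, around the 25th percentile of the arrays (3.85 to 4.04). It does not stand for the T, NK and B cell list, whose summed level was at least 13.61 log2 on all arrays through brighter genes. Adgre1 and Csf1r, both macrophage receptors, lay between 4.12 and 4.84 on all arrays, below the median of each array. The summed monocyte and macrophage list was 9.38 to 9.86 log2 in CD169-DTR 2 Gy and 9.39 to 10.22 in CD169-DTR non-irradiated LT-HSC, and 9.71 to 10.02 in WT 2 Gy and 9.77 to 9.91 in WT non-irradiated LT-HSC, with 10 of 16 markers higher with 2 Gy in CD169-DTR and 13 of 16 in WT.

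**Figure D3:**
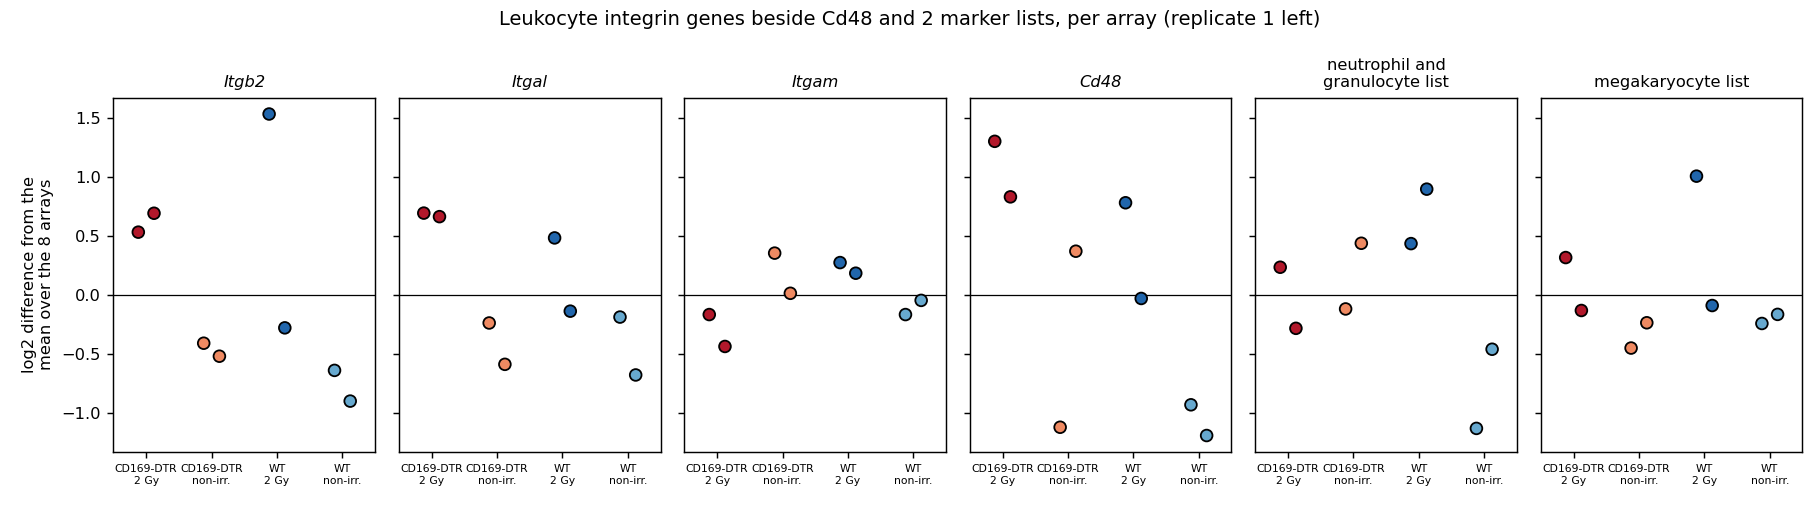
Log2 difference from the mean over the 8 arrays (vertical axis) for Itgb2, Itgal, Itgam and Cd48 and for the mean of 2 marker lists, per array in the 4 groups (horizontal axis). Itgb2 and Cd48 each lay above their mean in 3 of the 4 irradiated arrays, Cd48 also in 1 CD169-DTR non-irradiated array. The neutrophil and granulocyte list was highest in WT 2 Gy replicate 2. Itgb2 and the megakaryocyte list were highest in WT 2 Gy replicate 1.

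The alpha 5 chain separated the genotypes in both treatments, and the treatments in WT only, where the nearest arrays were close (9.67 and 9.69 log2). Itga5 stood at 10.19 and 10.29 log2 in CD169-DTR 2 Gy LT-HSC, against 9.41 and 9.67 in WT 2 Gy LT-HSC. Without irradiation it stood at 10.35 and 10.28 in CD169-DTR, against 9.69 and 9.77 in WT. All 4 CD169-DTR arrays lay above all 4 WT arrays, and the replicates of each group were close, with an SD of 0.05 to 0.18 log2. The log2 difference between CD169-DTR and WT was 0.70 ± 0.13 (SE) after 2 Gy, or 1.62-fold with a 95% interval of 1.31 to 2.02 (unadjusted p = 0.00135, adjusted p = 0.551 in limma). It was 0.59 ± 0.13 without irradiation, or 1.5-fold with an interval of 1.21 to 1.87 (unadjusted p = 0.00349, adjusted p = 0.937). Averaged over the treatments it was 0.64 ± 0.09, or 1.56-fold with an interval of 1.34 to 1.82 (unadjusted p = 0.000306, adjusted p = 0.683 in limma). This p took place 9 among 30294 probe sets, a place that so many tests can give without any difference. In that comparison 0 probe sets passed. Over all the alternatives this average lay between 0.55 and 0.71 log2, with adjusted p values of 0.288 to 0.999. Marker lists differed between the genotypes too. Without irradiation, 15 of 16 neutrophil and granulocyte markers were higher in CD169-DTR than in WT (median 0.60 log2, 2 with an unadjusted p under 0.05), and 10 of 11 LT-HSC markers were lower (median -0.19, 2 with such a p). After 2 Gy, 12 of the 16 were lower (median -0.43) and 8 of the 11 were lower (median -0.12). The median over all probe sets was 0.03 log2 without irradiation and -0.02 after 2 Gy. Without irradiation, 4.38% of all probe sets had an unadjusted p under 0.05 in either direction. The part of these differences in the Itga5 values was not tested. The change of Itga5 after 2 Gy was -0.07 ± 0.13 in CD169-DTR and -0.19 ± 0.13 in WT.

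The partner beta chain did not show this order. Itgb1 stood at 11.02 and 11.24 log2 in CD169-DTR 2 Gy against 11.17 and 11.02 in WT 2 Gy LT-HSC, and at 10.88 and 10.91 in CD169-DTR non-irradiated against 11.12 and 11.13 in WT non-irradiated LT-HSC. CD169-DTR non-irradiated LT-HSC thus had the lowest values, at -0.23 ± 0.13 log2 (SE) from WT non-irradiated LT-HSC (adjusted p = 0.999 in limma), while the irradiated groups overlapped. The difference between the genotypes in the change of Itgb1 after 2 Gy was 0.26 ± 0.18 log2 (adjusted p = 0.96).

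The alpha 4 and alpha 6 chains, which also pair with beta 1, had groups that overlapped throughout the order of their means. Itga4, the alpha chain of VLA-4, stood at 10.76 and 10.22 log2 in CD169-DTR 2 Gy, 10.40 and 10.79 in CD169-DTR non-irradiated, 10.94 and 10.59 in WT 2 Gy and 10.93 and 10.69 in WT non-irradiated LT-HSC. Neighbouring group means were 0.05 to 0.16 log2 apart, within a replicate SD of 0.17 to 0.38. Itga6, the alpha chain of VLA-6, stood at 10.34 and 10.11 in CD169-DTR 2 Gy, 10.48 and 10.17 in CD169-DTR non-irradiated, 10.53 and 10.31 in WT 2 Gy and 10.45 and 10.50 in WT non-irradiated LT-HSC. The change after 2 Gy was -0.10 log2 in CD169-DTR for each of them, with 95% intervals of -0.68 to 0.47 for Itga4 and -0.48 to 0.28 for Itga6, and -0.04 (-0.62 to 0.53) and -0.05 (-0.44 to 0.33) in WT. Averaged over the treatments, Itga6 lay -0.17 ± 0.11 log2 (SE) from WT in CD169-DTR (adjusted p = 0.862 in limma), and -0.06 without the 2 arrays of greatest mean distance from the others.

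The chains of the platelet fibrinogen receptor and the vitronectin receptor stood mostly lower after irradiation. Itgb3, the beta 3 chain (CD61), stood at 8.15 and 6.88 log2 in CD169-DTR 2 Gy against 8.49 and 8.15 in CD169-DTR non-irradiated LT-HSC. In WT it stood at 8.21 and 7.41 in 2 Gy against 8.50 and 8.49 in non-irradiated LT-HSC. The irradiated replicates were far apart in both genotypes, with replicate 2 the lower. The difference after 2 Gy averaged -0.75 ± 0.31 log2 (SE) over the genotypes, or 1.68 times higher in the non-irradiated groups (unadjusted p = 0.0486, adjusted p = 0.54 in limma). It was -0.80 ± 0.44 in CD169-DTR (adjusted p = 0.817) and -0.69 ± 0.44 in WT (adjusted p = 0.702), and the average was -0.43 without CD169-DTR 2 Gy replicate 2, the lowest array.

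Itgav, the alpha V chain, stood at 7.09 and 6.27 log2 in CD169-DTR 2 Gy against 7.20 and 7.03 in CD169-DTR non-irradiated LT-HSC, and at 6.25 and 6.85 in WT 2 Gy against 7.28 and 6.93 in WT non-irradiated LT-HSC. The average after 2 Gy was -0.50 ± 0.22 log2 (unadjusted p = 0.0653, adjusted p = 0.559 in limma). In 3 of the 4 groups the replicate with more Itgav also had more Itgb3, and in none of the 4 did it have more Itgb1, the other partner of alpha V. The Itgb1 replicates were nearly equal in the non-irradiated groups (10.88 and 10.91 in CD169-DTR, 11.12 and 11.13 in WT), so their order says little.

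Itga2b, the alpha IIb chain (CD41), stood at 10.70 and 10.27 log2 in CD169-DTR 2 Gy against 10.55 and 10.70 in CD169-DTR non-irradiated LT-HSC, and at 10.31 and 10.31 in WT 2 Gy against 10.96 and 10.40 in WT non-irradiated LT-HSC. The average after 2 Gy was -0.25 ± 0.16 log2 (adjusted p = 0.634 in limma), and the groups overlapped in CD169-DTR. Other genes of megakaryocytes stood mostly higher with 2 Gy, while the summed LT-HSC and erythroid lists stood lower. The part of these cells in the values of Itgb3, Itgav and Itga2b was not tested. Of 14 measured megakaryocyte markers, 14 were higher in WT 2 Gy than in WT non-irradiated LT-HSC, with a median difference of 0.62 log2, against 64.2% of all probe sets, and 10 of 14 in CD169-DTR, with a median of 0.20, against 56.6%. Their summed level was 16.21 to 16.81 log2 in CD169-DTR 2 Gy against 15.73 to 16.03 in CD169-DTR non-irradiated LT-HSC, and 16.49 to 16.70 in WT 2 Gy against 15.86 to 16.00 in WT non-irradiated LT-HSC. In WT 2 Gy replicate 1, where the mean of these markers stood 1.004 log2 above its mean over the arrays, Itga2b was at 10.31, among its 3 lowest values. In CD169-DTR 2 Gy replicate 1, the next highest array for these markers (0.315), Itga2b was at 10.70, against 10.27 in replicate 2. Itgb3 was higher in replicate 1 of both 2 Gy groups, at 8.21 against 7.41 in WT and 8.15 against 6.88 in CD169-DTR.

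**Figure D4:**
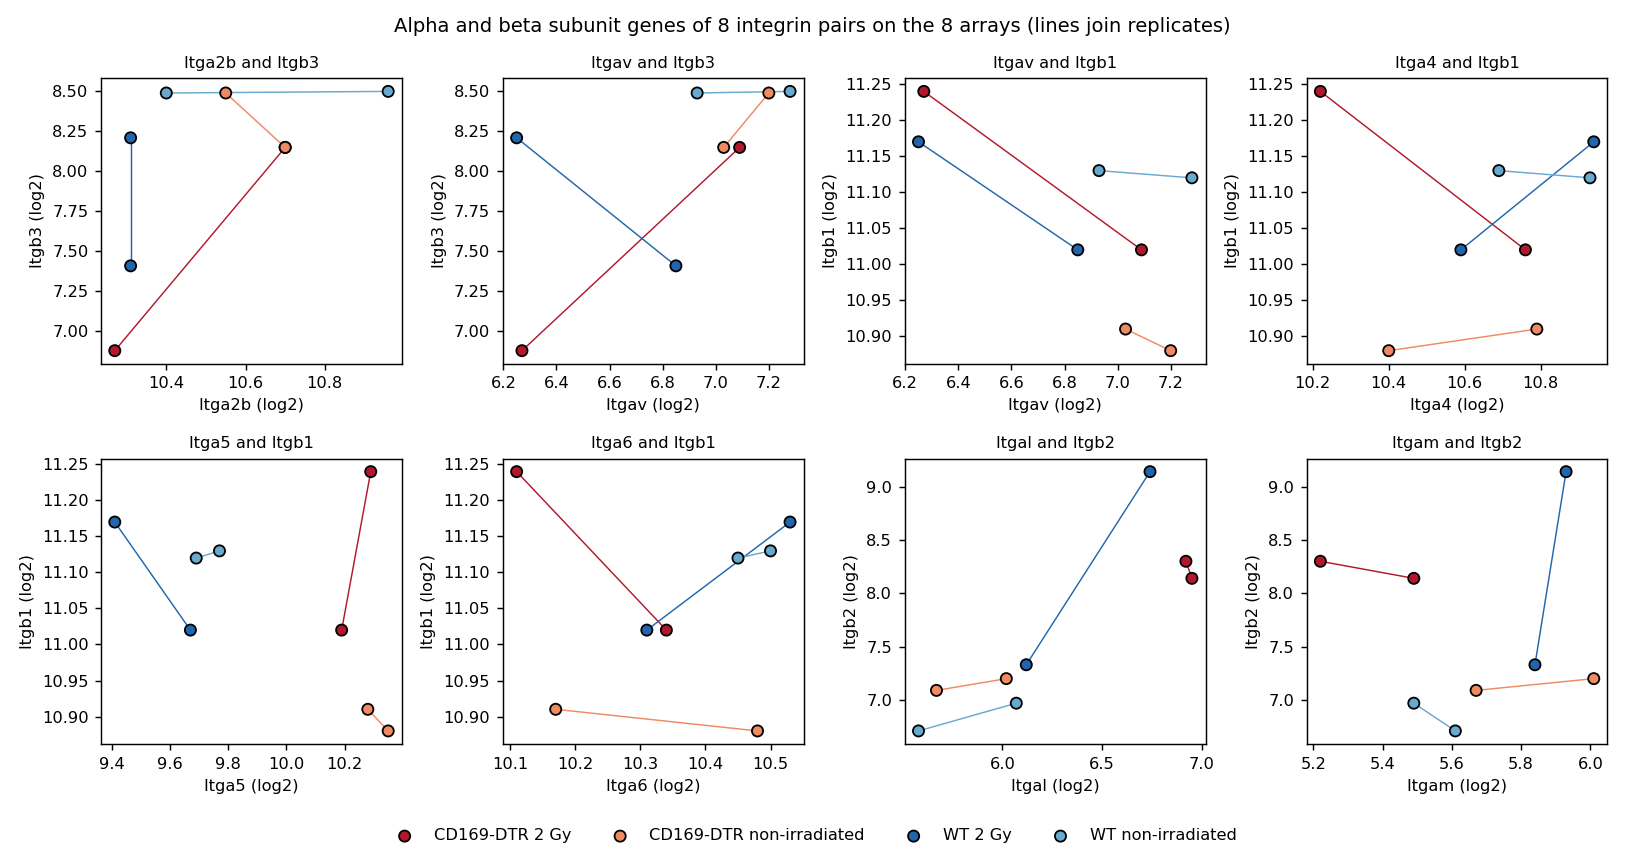
Beta subunit gene (vertical axis, log2) against alpha subunit gene (horizontal axis, log2) for 8 known integrin pairs on the 8 arrays, with a line joining the replicates of each group. The replicate with more Itgal had more Itgb2 in 3 of 4 groups and the one with more Itgav had less Itgb1 in all 4, while Itga4, Itga5 and Itga6 had the same order as Itgb1 in 2 of 4 groups each. Itgb1 replicates were nearly equal in the non-irradiated groups.

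Of the 15 other integrin subunits measured, 4 had a mean above the median of the tested probe sets, namely Itga2, Itga9, Itgb5 and Itgb7, and 11 lay below it. None passed in limma in any of the 7 comparisons. Itga2, the alpha chain of a collagen receptor, was the most variable of them, with a range of 2.58 log2. It stood at 5.35 and 4.8 log2 in CD169-DTR 2 Gy against 7.38 and 6.10 in WT 2 Gy LT-HSC, a difference of -1.67 ± 0.46 (SE, unadjusted p = 0.00964, adjusted p = 0.619 in limma). Without irradiation it stood at 5.25 and 5.95 in CD169-DTR against 6.73 and 6.24 in WT, a difference of -0.89 ± 0.46. All 4 CD169-DTR arrays lay below all 4 WT arrays for this gene, which was singled out for its range after its values were seen.

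Genes that carry out integrin signals were taken from fixed lists, and none of their members passed in limma in any comparison. Among 27 measured genes of the adhesion complex, 18 were lower and 9 higher in WT 2 Gy than in WT non-irradiated LT-HSC, with a median of -0.10 log2, while the median of all probe sets was 0.08. Of these, 4 had an unadjusted p under 0.05 and a lower value, where 3.21% of all probe sets did, and 1 had a higher one. Ptk2b, the kinase Pyk2, had -0.94 ± 0.17 log2 (SE, unadjusted p = 0.00111, adjusted p = 0.379). Vav1, an activator of Rac, had -1.12 ± 0.28 (adjusted p = 0.5) and Parvg, a parvin of blood cells, -0.64 ± 0.21 (adjusted p = 0.566). In CD169-DTR, 16 of the 27 were higher and 11 lower, with a median of 0.03 beside 0.03 for all probe sets, and none had an unadjusted p under 0.05. The difference between the genotypes in the change of Ptk2b was 0.91 ± 0.24 (unadjusted p = 0.00767, adjusted p = 0.874). CD169-DTR non-irradiated LT-HSC also had a lower Ptk2b value than WT non-irradiated LT-HSC, with a difference of -0.91 ± 0.17 log2 (adjusted p = 0.936). These comparisons share the non-irradiated arrays.

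Among 19 measured genes of integrin activation, 9 were higher and 10 lower after 2 Gy in WT, and 15 were higher and 4 lower in CD169-DTR, with medians of -0.03 log2 in WT and 0.17 in CD169-DTR beside 0.08 and 0.03 over all probe sets. Sipa1, which switches off the integrin activator Rap1, had -0.51 ± 0.16 log2 (SE) in WT (adjusted p = 0.558 in limma). Rasgrp2, an exchange factor of Rap1, had 0.43 ± 0.16 in CD169-DTR (adjusted p = 0.671), and Apbb1ip (RIAM), which links Rap1 to talin, -0.41 ± 0.16 (adjusted p = 0.693). Apbb1ip was also the gene of this list, after Sipa1, with the smallest p for the difference between the genotypes (-0.48 ± 0.22 log2, adjusted p = 0.933).

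Of 23 measured ligand genes, 17 were higher after 2 Gy in WT and 12 in CD169-DTR, with medians of 0.11 log2 in WT and 0.02 in CD169-DTR. These lie near the values over all probe sets, of which 64.2% and 56.6% were above 0, with medians of 0.08 and 0.03. Tgfb1, whose latent form is bound by alpha V integrins, had 0.61 ± 0.16 in WT (adjusted p = 0.505 in limma), and Jam3, a ligand of Mac-1, 0.63 ± 0.20 (adjusted p = 0.566). F11r, a junctional ligand of LFA-1, had -0.82 ± 0.34 (adjusted p = 0.639). The difference between the genotypes in the change of Jam3 was -1.0 ± 0.28 (adjusted p = 0.878). Of 13 tetraspanins and other lateral partners, 7 were lower and 6 higher after 2 Gy in each genotype. Cd37, a tetraspanin of leukocytes, stood 0.68 ± 0.17 log2 higher in CD169-DTR than in WT without irradiation (adjusted p = 0.937) and 0.47 ± 0.17 higher after 2 Gy (adjusted p = 0.645). This is the same order of genotypes as for Itga5.

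**Figure D5:**
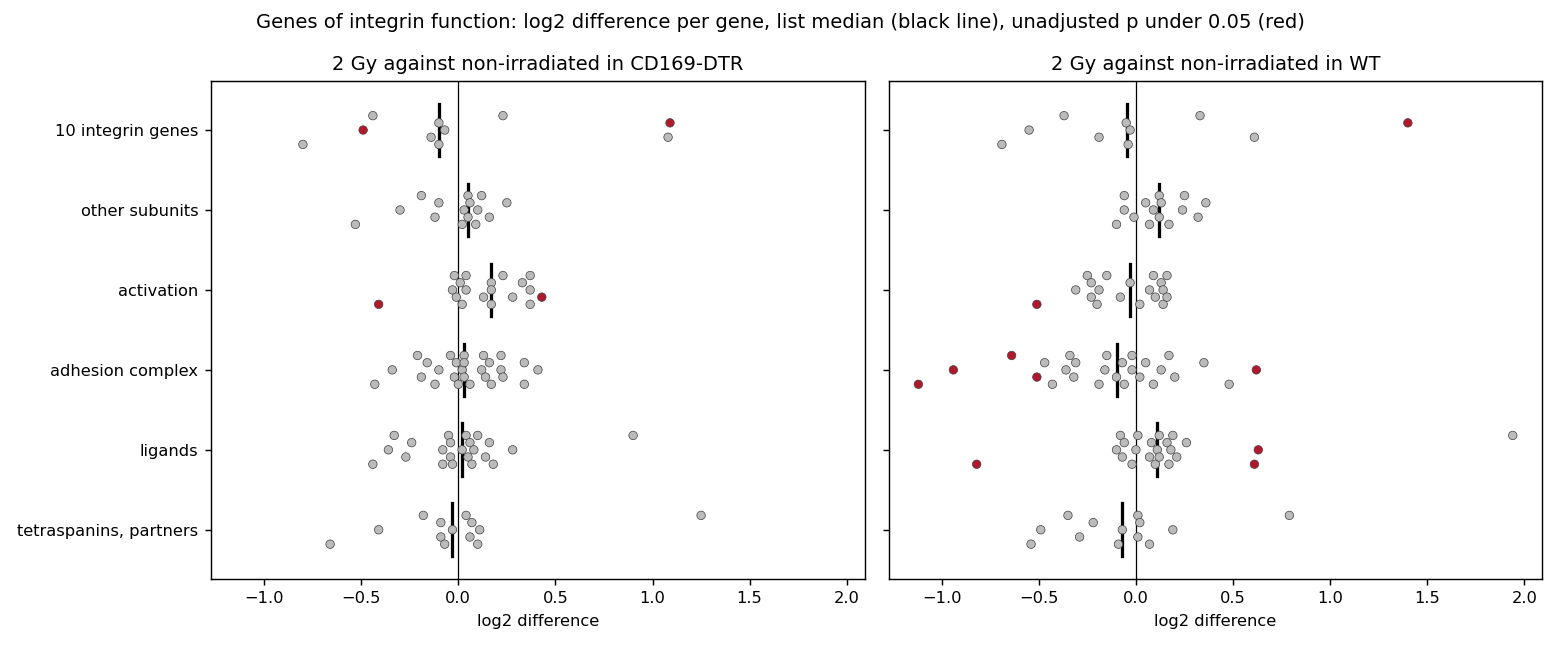
Log2 difference after 2 Gy (horizontal axis) of each measured gene of 6 lists (rows) in CD169-DTR and in WT, with the list median as a black line and red points for an unadjusted p under 0.05. In WT 4 adhesion complex genes were red on the lower side, in CD169-DTR none, and no gene passed the adjusted p in either.

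The genes most like each member were sought among 4499 genes with a mean above the median and a range of at least 1 log2, by Pearson r over the 8 arrays. With so many genes and 8 arrays, high values of r are found for every member, and they are given as a description. For Itga5 the closest were Gpatch4 (r = 0.961), Mrpl49 (0.957), a protein of mitochondrial ribosomes, and Piga (0.925), an enzyme of GPI anchor synthesis. After predicted genes and genes of no known role were passed over, it was S100a4 (0.906), a calcium-binding protein, for Itgal and Polr3a (0.954), the large subunit of RNA polymerase III, for Itgb2. For Itgam they were Wdr37 (0.982) and Gzf1 (0.936), for Itgb3 Wsb1 (0.966), and for Itgav Fut10 (0.956), a fucosyltransferase. Itga4 was most like Pign (0.965), an enzyme of GPI anchor synthesis, Itga6 most like Coq8a (0.946), a gene of coenzyme Q synthesis, and Itga2b most like Trafd1 (0.944). The highest r was that of Itgam, and the lowest best match was that of Itgb1, with Cyp39a1 (0.9), an oxysterol hydroxylase.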

How the data were processed

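RNA of sorted LT-HSC was measured on 8 Affymetrix arrays. Biotinylated cDNA was prepared with a kit for very small RNA amounts, per the labels' protocols. Values per probe set were made with RMA, per the submitters' processing notes, and were read as log2 values of the authors, the convention of RMA, since the table does not state the base. They were used as deposited, with no filter and no pseudocount. Of 40161 probe sets, 30294 carried 1 gene symbol in the platform annotation and were tested, 2145 carried several and 7722 none. The probe set with the highest mean stood for a gene.

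Groups came from the sample titles. A model with the 4 group means was fitted to all 8 arrays with limma 3.58.1 (lmFit, eBayes) in R 4.3.3, with 4 residual and 2.59 prior degrees of freedom. Tests were two-sided, with Benjamini-Hochberg adjustment over 30294 probe sets within each of 7 comparisons and a threshold of 0.05. The script was tested on simulated data. SE and 95% intervals come from this fit, and with 2 arrays a group they are wide. Replicates came from distinct experiments per the design text, but nothing says that equal numbers share one, so the main fit has no replicate block.

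The members and all lists were chosen with earlier results of these data known. Differences are printed for members with an unadjusted p under 0.05, or the 2 with the smallest p, and for up to 4 genes of each other list with the smallest p. Other differences of members were added after their values were seen. Alternatives were each array left out, array weights, median centring, cyclic loess, an intensity trend with robust hyperparameters, only the compared groups, the replicate block, every probe set including those without a symbol, and only probe sets with a mean over the 40th percentile.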

Additional observations from a re-analysis of the deposited data

Results flagged for a closer look

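Itgam is listed because its order with irradiation was opposite in the genotypes, with both irradiated arrays below both controls in CD169-DTR and above both in WT. The difference between CD169-DTR and WT in the change after 2 Gy was -0.82 log2 (95% interval -1.37 to -0.27). It was tested in the limma fit and did not pass (unadjusted p = 0.0103, adjusted p = 0.875), and it lay between -0.99 and -0.64 log2 over the alternatives. For the same difference, 15 of 16 neutrophil and granulocyte markers lay below 0, with a median of -1.21 log2. Of these, 5 had an unadjusted p under 0.05 in limma, where 5.17% of all probe sets did in either direction. The median of all probe sets was -0.05 log2. The part of granulocytic cells in the Itgam values was not tested.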

How the results depend on the processing

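With no single array left out, no integrin gene passed in limma in any of the 7 comparisons under any of the other settings run, the replicate block included, where the count was 0 in each. With arrays left out 1 at a time, the count was 0 to 1 for 2 Gy in WT and 0 to 1 for the average over the genotypes, and 0 in the other 5 comparisons. The 1 gene was Itgb2 without WT 2 Gy replicate 2, at 2.30 log2 (adjusted p = 0.0447) and 1.69 log2 (adjusted p = 0.0462). None of the differences of members that the naming rule picked changed sign under any alternative run. A fit that left out both the second CD169-DTR and the first WT array of the 2 Gy groups, which was added after seeing the data, gave 0 integrin genes and an Itgb2 difference of 0.49 log2 in WT. Deviations of replicate 1 correlated between groups with r of -0.088 to 0.159, and neither this nor the labels settle whether equal numbers share an experiment. Itgal and Itgb3 were higher in replicate 1 in all 4 groups, and the replicate block took the SE of their average 2 Gy differences to 0.12 and 0.22, from 0.18 and 0.31 without it, with adjusted p values of 0.286 and 0.474. The number of all probe sets that passed ranged from 0 to 16 for 2 Gy in WT (3 with all arrays), 0 to 5 for 2 Gy in CD169-DTR (0) and 0 to 11 for CD169-DTR against WT after 2 Gy (0). It was 1 to 12 for the average of 2 Gy (3), 0 to 6 for CD169-DTR against WT without irradiation (0), 0 to 7 for the difference between the genotypes (0) and 0 to 4 for the genotype average (0). The causes of these shifts were not tested. A second probe set per gene could not be tried, since each of the 10 genes had 1.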
